A study of Mus musculus with 2 samples.

Results

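A set of 10 genes of the JAK-STAT3 pathway and its SOCS feedback inhibitors were followed in mammary tumors of MMTV-PyVT mice. They were Stat3, Jak1, Jak2, Socs1, Socs2, Socs3, Cish, Lifr, Osmr and Pim1, chosen by symbol, and all 10 were found among the 55536 genes of the deposited table. In these mice the mouse mammary tumor virus promoter directs middle T antigen of polyoma virus to epithelial cells of the breast, and both groups carried this transgene. A control group received dimethyl sulfoxide (DMSO, here called the vehicle) and the other group cyanidin-3-glucoside (C3G), an anthocyanin pigment of berries. Treatment started at the stage of ductal hyperplasia, and tumors were collected once their burden met a set limit, so that age at collection was not fixed by design. Strain, age and dose were not given in the sources used here. RNA was sequenced from 1 library per group, so no value below has a replicate check and differences between treatments cannot be told apart from differences between individual mice. The labels do not say if a library held a single tumor or a pool, and the vehicle tumor and the C3G tumor stand for these libraries. The libraries held 12192275 (vehicle) and 16081110 (C3G) gene-assigned reads.

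Cytokines of the interleukin-6 family bind receptors such as LIFR and OSMR paired with gp130, and the bound receptors activate the kinases JAK1 and JAK2. The kinases phosphorylate STAT3, which enters the nucleus and switches on target genes, among them Socs3 and Pim1. SOCS proteins and CIS, the product of Cish, bind the receptors or the kinases and damp the signal, and Cish and Socs2 are classic targets of STAT5 downstream of prolactin and growth hormone. In the mammary gland STAT5 is known for driving milk production and STAT3 for driving cell loss after weaning. RNA levels do not report phosphorylation, the step that activates these factors.

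None of the 10 genes differed 2-fold by the size rule between the tumors. The rule called a gene when its higher value was at least 5 TPM (transcripts scaled to 1000000 per library, a level per gene length) and log2((C3G TPM + 1)/(DMSO TPM + 1)) was at least 1 in size. It called 0 of the 9 genes that reached 5 TPM, against 7.4% of all 12780 genes that did, 3.1% higher and 4.3% lower in the C3G tumor. Socs1 was below 5 TPM in both tumors. At the looser limit of 1.5-fold, Cish alone passed, 1 of 9 genes (11.1%) against 20.6% of all genes, 11.5% higher and 9.15% lower. With so few genes neither share sets the group apart. The median log2 ratio of the 10 genes was 0.15, with 6 above 0 and 4 below, beside 0.10 over all 17468 genes with a mean of at least 1 TPM, of which 58.9% were above 0. Of the 10, 6 lay between the quartiles of all genes, which were -0.22 and 0.38.

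Stretches near the start sites are shown for Cish, Socs3 and Socs1, the members with a match to the cores below. Whether the matches bear on the ratios between the tumors was not tested. The stretches are cut from longer sequences. These sequences are RefSeq promoters of build GRCm38.p6, which run from 250 bases before to 50 after a start. These promoters matched 9 of the 10 genes, with 11 starts, and Socs2 had none. TTCNNNGAA, the core that STAT dimers recognise and its own reverse complement, was found in 2 of the 11 promoters and in 8.30% of all 32851. GAAANNGAAA, the core of elements bound by interferon-activated factors, was searched on both strands and found in 1 of the 11 and in 3.44% of all. Capitals mark the matches, all sequences read 5′ to 3′ along the gene, and a match is a description of letters, not evidence of binding.
Cish (chr9:107296655-107296684, plus strand): agttTTCCTGGAAagTTCTTGGAAatctgt
Socs3 (chr11:117969501-117969530, minus strand): gaaaccagccTTCTTAGAAgggaggggggg
Socs1 (chr16:10785537-10785686, minus strand): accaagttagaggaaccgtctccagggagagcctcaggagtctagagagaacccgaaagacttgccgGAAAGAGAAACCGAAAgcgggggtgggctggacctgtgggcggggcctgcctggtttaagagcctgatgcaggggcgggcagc
The Cish stretch holds a pair of STAT cores, TTCCTGGAA at the start base and TTCTTGGAA 11 bases after it. Socs3 has a single core, TTCTTAGAA, beginning 154 bases before the start. In Socs1 the matches GAAAGAGAAA and GAAACCGAAA, beginning 83 and 77 bases before the start, overlap each other. The other members' promoters held neither core in this window. Starts here are those of the promoter set. The Cish and Socs3 stretches lie inside the gene spans given for them below, downstream of the gene starts annotated there. The Socs1 stretch lies directly before its annotated gene.

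**Figure D1:**
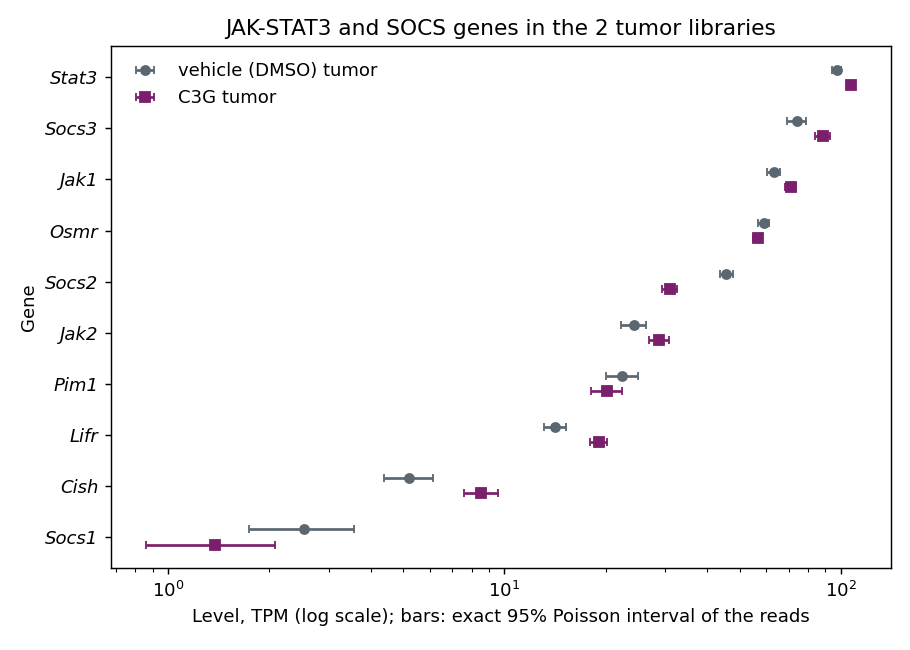
Level of each gene in TPM on a log axis in the vehicle tumor (circles) and the C3G tumor (squares), 1 library each, with exact 95% Poisson intervals of the reads. Stat3 is highest in both tumors, at 97.3 and 107 TPM, and Socs1 lowest, at 2.54 and 1.38 TPM.

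The order of the levels was the same in both tumors. In the vehicle tumor Stat3 led, followed by Socs3, Jak1, Osmr, Socs2, Jak2, Pim1, Lifr, Cish and Socs1. Neighbours whose 95% counting intervals overlapped were Jak1 and Osmr, and Jak2 and Pim1, in the vehicle tumor. In the C3G tumor they were Socs2 and Jak2, and Pim1 and Lifr. Stat3 was above 94.0% of the genes detected in the vehicle tumor and above 94.8% of those in the C3G tumor, whereas Socs1 was above 39.9% and 34.0%. The order depends on the length used (a comparison added after the data were seen), since TPM divided reads by all annotated exon bases. For Socs2 these came to 9531 bases, 4.29 times its longest protein-coding transcript. Per length of that transcript, Socs2 would stand first in the vehicle tumor and next to Stat3 in the C3G tumor, with Osmr after them in both. Ratios between the tumors do not depend on this choice. Ratios between genes within a tumor, and shares of a family's summed level, do.

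The receptors differed from each other. Osmr, the signalling chain for oncostatin M (ENSMUSG00000022146, mm10 chromosome 15, 6813577 to 6874969), measured 58.9 TPM under vehicle against 56.6 TPM under C3G. Its ratio of C3G to DMSO was 0.961, with a 95% counting interval of 0.916 to 1.01. Intervals of this kind cover counting error only. The interval includes 1, while relative to the median of all genes the log2 ratio of Osmr was -0.16. Lifr, the receptor chain for leukemia inhibitory factor (ENSMUSG00000054263, chromosome 15, 7090614 to 7197489), lies 215644 bases from Osmr. It measured 14.1 TPM under vehicle against 19.1 TPM under C3G, a ratio of 1.35 (1.22 to 1.49). The ratio of Osmr to Lifr went from 4.16 in the vehicle tumor to 2.97 in the C3G tumor, 1.40-fold lower (1.26 to 1.56, from the reads of all 4 values).

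Fat cell and endothelial markers mostly had log2 ratios above 0, as did Lifr and 58.9% of all genes with a mean of at least 1 TPM. All 12 adipocyte markers had log2 ratios above 0, and their summed level was 366 TPM under vehicle and 1518 TPM under C3G, led in log2 ratio among those that reached 5 TPM by Retn, Car3 and Fabp4. Of 12 endothelial markers 11 were above 0, with summed levels of 59.9 and 131 TPM, led likewise by Cldn5, Tie1 and Pecam1. No marker of either list was at 0 in either tumor. Their part in the Lifr ratio was not tested. In bulk tumor RNA, more cells of a type and more RNA per cell cannot be told apart.

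Among the other receptors of the family, gp130 itself was close to Lifr. Il6st, which encodes gp130, measured 17.8 TPM under vehicle against 23.2 TPM under C3G, a ratio of 1.30 (1.20 to 1.42). The ratio of Lifr to Il6st was 0.794 and 0.822 in the vehicle and C3G tumors, a difference within counting error (ratio of ratios 1.03, 0.910 to 1.18). Il11ra1, the interleukin-11 receptor chain, was at 58.3 and 43.2 TPM, 1.35-fold lower with C3G (1.24 to 1.47). The interleukin-6 receptor Il6ra was at 7.71 and 7.37 TPM. None of these 3 receptors was called. Cntfr, a ciliary neurotrophic factor receptor named after its values were seen, was below 5 TPM, with 32 reads against 8.

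The ligands were scarce. Of 8 ligand genes of the interleukin-6 family 3 reached 5 TPM, and none was called. Cardiotrophin (Ctf1) measured 12.0 TPM under vehicle against 8.58 TPM under C3G. Lif stood at 6.47 and 4.56 TPM, and Clcf1 at 8.30 and 6.31 TPM. All 3 were 1.32-fold to 1.42-fold lower in the C3G tumor, and each interval excluded 1 narrowly. Il6 and Osm, picked out after their values were seen, went the other way at low levels. Il6, the founding cytokine of the family, had 8 reads under vehicle against 55 under C3G (0.760 and 4.12 TPM), a ratio of 5.42 (2.57 to 13.2). Osm, the ligand of OSMR, had 13 and 37 reads (1.32 and 2.96 TPM), a ratio of 2.25 (1.17 to 4.60).

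All 4 JAK kinase genes had ratios above 1 in the C3G tumor, Jak1 and Jak2 by little more than genes in general. Jak1, which serves gp130, interferon and common gamma chain receptors (ENSMUSG00000028530, chromosome 4, 101152367 to 101265282), measured 63.1 TPM under vehicle against 70.9 TPM under C3G, a ratio of 1.12 (1.06 to 1.19). Jak2, which serves prolactin, growth hormone and gp130 receptors (ENSMUSG00000024789, chromosome 19, 29251828 to 29313080), stood at 24.3 and 28.8 TPM, a ratio of 1.19 (1.06 to 1.33). Jak1 was 2.60 times as abundant as Jak2 in the vehicle tumor and 2.46 times in the C3G tumor, which did not differ beyond counting error (ratio of ratios 0.946, 0.836 to 1.07). The remaining kinases, Tyk2 (21.7 and 30.1 TPM) and Jak3 (19.0 and 24.2 TPM), had ratios of 1.39 (1.26 to 1.53) and 1.28 (1.13 to 1.44). Jak1 made up 49.3% of the summed JAK level in the vehicle tumor and 46.0% in the C3G tumor. Relative to the median of all genes, the log2 ratios of Jak1 and Jak2 were 0.06 and 0.14.

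Stat3 was nearly level between the tumors. It encodes the transcription factor at the centre of the pathway (ENSMUSG00000004040, chromosome 11, 100885098 to 100939540), and measured 97.3 TPM under vehicle against 107 TPM under C3G. The ratio was 1.10 (1.06 to 1.15), and the log2 ratio exceeded the median of all genes by 0.04. The end of Stat3 shares 72 exon bases with Stat5a on the opposite strand, 0.756% of its exon length, and the library kit does not mark strand.

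**Figure D2:**
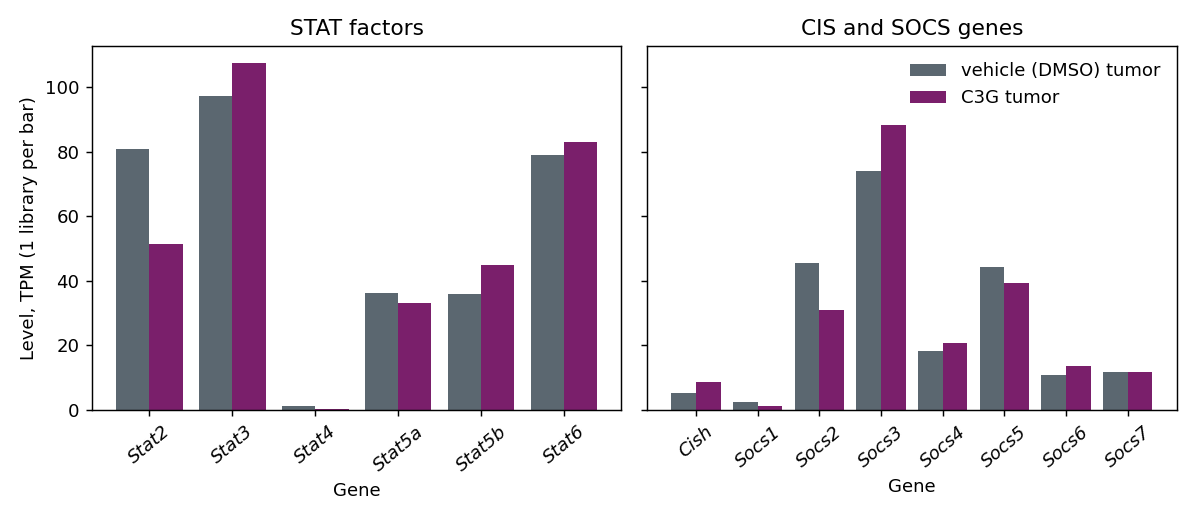
Level in TPM of 6 STAT genes (left) and of Cish and the 7 SOCS genes (right), with 1 bar per library. Stat2 is lower in the C3G tumor while Stat3 is not, and Socs2 is lower while Socs3 and Cish are higher.

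Stat2, a mediator of type I interferon, measured 80.7 TPM under vehicle against 51.3 TPM under C3G, 1.57-fold lower (1.47 to 1.68). Stat5b stood at 35.9 and 45.0 TPM, its neighbour Stat5a at 36.2 and 33.1 TPM, and Stat6, the factor of interleukin-4, at 79.0 and 83.0 TPM. None of these 4 STAT genes was called.

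The CIS and SOCS genes held both ends of the range, with Cish highest and Socs1 (log2 ratio -0.57) and Socs2 (-0.54) lowest. Socs2 was the lower of the pair with a pseudocount of 5 (-0.49 against -0.24) and with length and GC trends removed (-0.70 against -0.47). Socs3, the inhibitor that STAT3 itself induces and that blocks gp130 (ENSMUSG00000053113, chromosome 11, 117966079 to 117970047), measured 74.0 TPM under vehicle against 88.4 TPM under C3G, a ratio of 1.20 (1.10 to 1.30). By TPM it was the most abundant of the 8 CIS and SOCS genes, with 34.8% of their summed level in the vehicle tumor and 41.2% in the C3G tumor. Per length of the longest protein-coding transcript, Socs2 stood above Socs3 in both tumors, at 196 against 83.8 under vehicle and 133 against 100 under C3G. The ratio of Socs3 to Stat3 was 0.760 and 0.823, which did not differ beyond counting error (ratio of ratios 1.08, 0.987 to 1.19).

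Cish had the highest ratio of the 10 and Socs2 was lower in the C3G tumor, although both are known as STAT5 targets. Cish (ENSMUSG00000032578, chromosome 9, 107296026 to 107302784) measured 5.21 TPM under vehicle against 8.53 TPM under C3G, a ratio of 1.64 (1.34 to 2.01) on 145 and 301 reads. Its log2 ratio of 0.62 was above that of 88.2% of all genes with a mean of at least 1 TPM. Socs2, an inhibitor of growth hormone signalling (ENSMUSG00000020027, chromosome 10, 95385362 to 95417180), stood at 45.6 and 31.0 TPM, 1.47-fold lower with C3G (1.38 to 1.58). Its log2 ratio of -0.54 was above that of 12.7% of genes. The ratio of Socs2 to Cish was 8.76 in the vehicle tumor and 3.63 in the C3G tumor, 2.41-fold lower (1.96 to 2.97). Exons of Cish overlap genes on the opposite strand. Gm17041 had 0 reads in both libraries, and Gm17040 had 1 read under vehicle and 0 with C3G. All 479 exon bases of Gm17041 are shared with Cish. The library kit does not mark strand, so the 0 reads do not show whether Gm17041 was transcribed. How reads in the overlapping bases were assigned is not given in the sources used here.

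Socs1, the inhibitor of interferon gamma signalling, was the scarcest member. It (ENSMUSG00000038037, chromosome 16, 10782240 to 10785536) had 32 reads in the vehicle library and 22 in the deeper C3G library, or 2.54 and 1.38 TPM. That was 1.84-fold lower, with an interval of 1.04 to 3.33 that runs from almost no difference to a large one. The ratio of Socs3 to Socs1 was 29.1 in the vehicle tumor and 64.2 in the C3G tumor, 2.20-fold higher (1.27 to 3.82). Socs4 to Socs7, which are less tied to cytokine feedback, had ratios from 0.884 for Socs5 (44.4 and 39.2 TPM) to 1.28 for Socs6 (10.8 and 13.7 TPM), with 0 of 4 called. Socs4 stood at 18.4 and 20.7 TPM and Socs7 at 11.8 and 11.7 TPM.

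**Figure D3:**
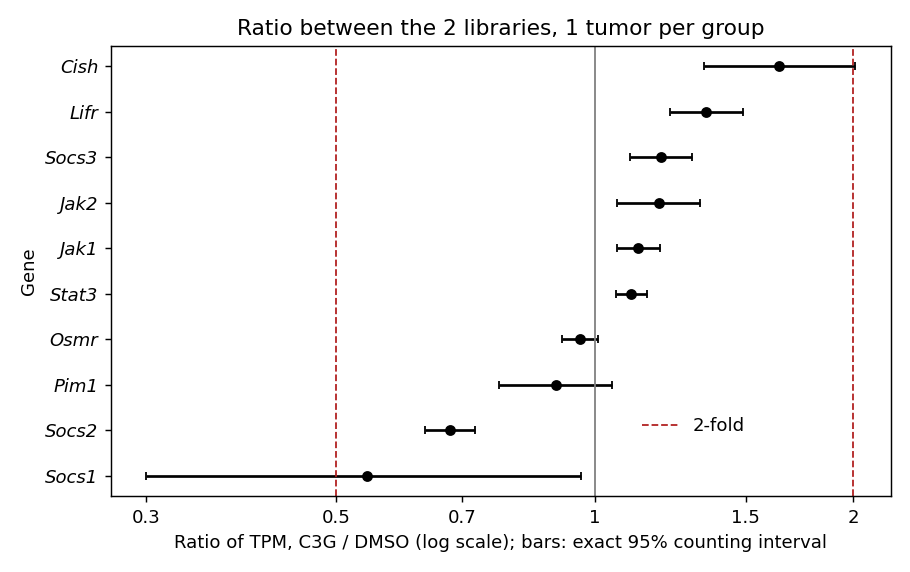
Ratio of TPM in the C3G tumor to the vehicle tumor for each gene on a log axis, with exact 95% counting intervals, the line of equal levels and dashed lines at 2-fold. The intervals of Osmr and Pim1 include 1, and only those of Cish and Socs1 reach 2-fold.

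Lymphocyte markers were lower in the C3G tumor, as Socs1 was. Of 9 interferon genes with a mean of at least 1 TPM, 7 had log2 ratios below 0, beside 7180 of all 17468 such genes. All 12 T and NK cell markers with a mean of at least 1 TPM, of 15 listed, had log2 ratios below 0, and the summed level of the list was 93.2 TPM under vehicle and 34.7 TPM under C3G, with no marker at 0 in either tumor. Among the markers that reached 5 TPM, Cd2, Trbc2 and Nkg7 had the largest log2 ratios in size, and their levels were 6.11-fold, 3.51-fold and 3.30-fold lower with C3G. Ifng, which encodes interferon gamma and was named after its values were seen, had 6 reads under vehicle and 0 with C3G, where 3 reads would be 0.422 TPM. In the list of interferon receptors and response genes the median log2 ratio was -0.18, with 2 of 9 above 0. Of the 9 genes that reached 5 TPM 3 were called lower and 0 higher, beside the 4.3% of all genes called lower. They were the chemokine Cxcl9, 2.49-fold lower (1.93 to 3.24), the interferon-induced GTPase gene Gbp2, 2.14-fold lower (1.97 to 2.34), and the immunoproteasome subunit gene Psmb8, 2.14-fold lower (1.97 to 2.31). The interferon receptor Ifnar1 stood at 20.6 and 29.96 TPM. The intervals of the interferon gamma receptor genes Ifngr1 (ratio 1.05) and Ifngr2 (0.999) and of the factor Irf9 (0.973) included 1. The part of these cells in the Socs1 ratio was not tested.

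Pim1, a kinase gene induced by STAT3 and STAT5, did not differ beyond counting error. It (ENSMUSG00000024014, chromosome 17, 29490753 to 29496112) measured 22.4 TPM under vehicle against 20.1 TPM under C3G, a ratio of 0.900 (0.774 to 1.05), and relative to the median of all genes its log2 ratio was -0.25. Its relative Pim3 was called higher, at 29.6 and 61.0 TPM, a ratio of 2.07 (1.81 to 2.36), and Pim2 stood at 9.49 and 10.3 TPM. Pim1 made up 36.4% of the summed PIM level in the vehicle tumor and 22.0% in the C3G tumor. The ratio of Pim1 to Pim3 was 2.29-fold lower in the C3G tumor (1.88 to 2.80). Pim1 exons share 488 bases with the antisense gene Gm26885, which was assigned 4 reads under vehicle and 1 under C3G in all.

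**Figure D4:**
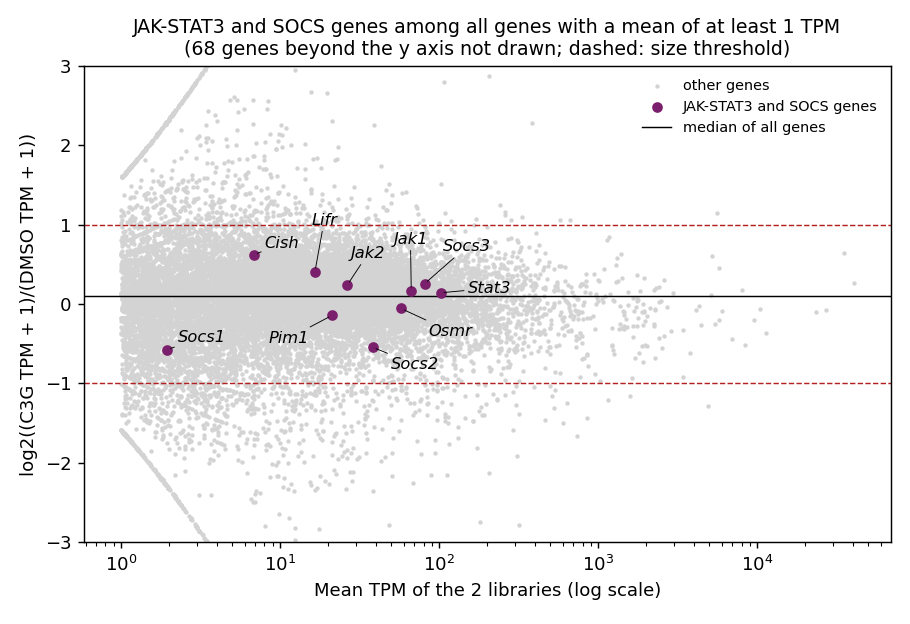
Log2 ratio against mean TPM (log axis) for genes with a mean of at least 1 TPM, with the 10 genes named. All 10 lie between the dashed lines of the size rule, from -0.57 for Socs1 to 0.62 for Cish, around the all-gene median of 0.10.

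Genes commonly listed as STAT3 targets showed no shared direction. Of 20, 10 had log2 ratios above 0 and 10 below, the median was -0.04, and 0 of the 19 that reached 5 TPM were called. Among those 19, the largest log2 ratios in size belonged to survivin (Birc5), which protects dividing cells and measured 34.6 TPM under vehicle against 57.0 TPM under C3G, and to the NF-kB cofactor Bcl3 at 39.8 and 25.7 TPM. The oxygen-sensing factor Hif1a stood at 28.4 and 43.3 TPM, and the protease inhibitor Timp1 at 68.1 and 45.7 TPM. Igfbp5, a binding protein of insulin-like growth factors known from mammary involution, was the most abundant at 6134 and 5316 TPM. It was 1.15-fold lower with C3G (1.15 to 1.16).

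Genes of prolactin and growth hormone signalling, which acts through JAK2 and STAT5, had a median log2 ratio of 0.08, beside 0.10 over all genes. Of 7 with a mean of at least 1 TPM, 6 were above 0, as were 58.9% of all such genes. The list median ran from -0.04 to 0.09 under the processing alternatives given below. Of the 7 genes that reached 5 TPM, 1 was called, beside 3.1% of all genes called higher. It was the milk gene Wap, at 24.7 TPM under vehicle and 68.4 TPM under C3G, a ratio of 2.77 (2.23 to 3.46). The milk gene Csn2, named after its values were seen, had 5 reads under vehicle and 8 under C3G. Its ratio was 1.26 (0.364 to 4.90). The growth hormone receptor Ghr stood at 18.3 and 27.7 TPM, a ratio of 1.51 (1.38 to 1.66), and Igf1 at 14.0 and 19.3 TPM. The milk regulator Elf5 was at 222 and 235 TPM. Prl, the prolactin gene, had 0 reads in both libraries, where 3 reads would be 0.491 TPM under vehicle and 0.388 TPM under C3G.

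Phosphatases and PIAS proteins, the other brakes of the pathway, gave 0 calls among the 9 genes, all of which reached 5 TPM. Pias2 was at 41.9 TPM under vehicle and 58.5 TPM under C3G, Pias3, named for binding STAT3, at 16.0 and 19.1 TPM, and Pias4 at 26.5 and 20.9 TPM. Ptpn2, a phosphatase of JAK1 and the STATs, was at 75.6 and 60.0 TPM. Among other receptors that use JAK1 or JAK2, the leptin receptor Lepr was called higher, at 1.87 and 9.17 TPM, a ratio of 4.91 (3.71 to 6.62), as 1 of the 7 that reached 5 TPM. Il2rg, the common gamma chain of lymphocytes, was at 9.95 and 4.50 TPM, 2.21-fold lower (1.59 to 3.10) and just short of the rule on its log2 scale. Csf2rb was at 5.64 and 9.78 TPM and Il10ra at 11.9 and 14.4 TPM. Over all 11 pathway lists, 6 of the 69 genes that reached 5 TPM were called, 3 higher and 3 lower (8.70%), beside the 7.4% of all genes, and the median log2 ratio was 0.02.

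**Figure D5:**
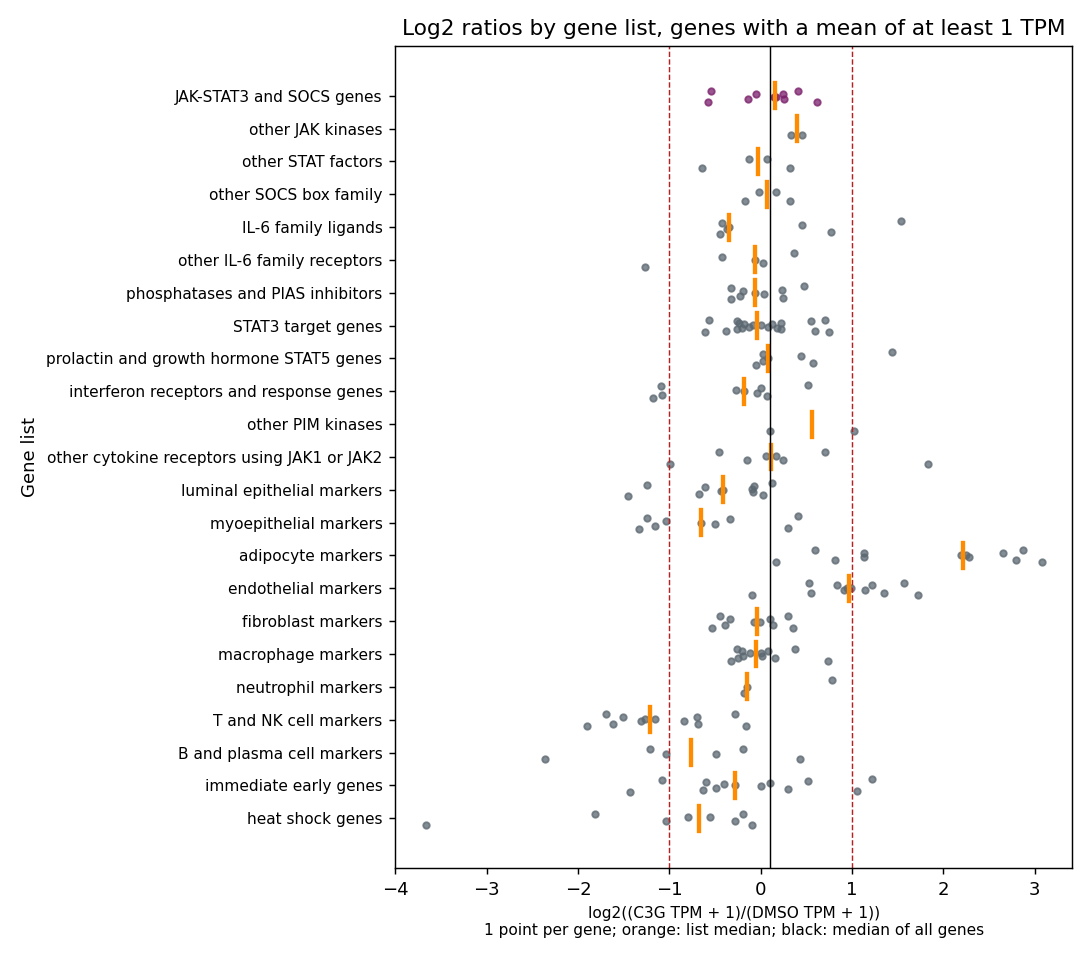
Log2 ratio of each gene with a mean of at least 1 TPM by list, with list medians in orange, the all-gene median as a black line and the size rule dashed. The JAK-STAT3 and SOCS genes centre on 0.15, whereas the adipocyte median is 2.22 and the T and NK cell median is -1.21.

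The tumors were checked against markers of their label. All 11 luminal epithelial markers were at a mean of at least 1 TPM, with the keratin Krt18 at 2824 and 1769 TPM in the vehicle and C3G tumors and, named outside the rule for its defining role, Epcam at 1484 and 1399 TPM. The luminal list had a median log2 ratio of -0.41, and 2 of the 10 genes that reached 5 TPM were called lower. They were Krt19 (678 and 246 TPM, 2.75-fold lower) and Foxa1 (19.2 and 7.49 TPM, 2.56-fold lower). The myoepithelial list had a median of -0.65, with 4 of 9 called lower, beside the 4.3% of all genes called lower. Fibroblast and macrophage markers had medians of -0.04 and -0.05, and B and plasma cell markers -0.76. Of 8 neutrophil markers 2 (Ly6g and Retnlg, named after their values were seen) were at 0 in both tumors. S100a8 was at 28.9 TPM under vehicle and 50.3 TPM under C3G, a ratio of 1.74 (1.34 to 2.27). Of the 3 neutrophil markers with a mean of at least 1 TPM, 1 was above 0 and 2 below. Their median was -0.16, and it ran from -0.28 to 0.78 under the processing alternatives given below. Immediate early genes, which respond to handling as well as to signals, had a median of -0.28. Of 13 that reached 5 TPM, 2 were called higher and 2 lower, beside 3.1% and 4.3% of all genes. All 8 heat shock genes were below 0, with a median of -0.67, and 3 of the 8 were called lower. Of all genes with a mean of at least 1 TPM, 58.9% were above 0. The part of handling or stress in the values of Socs3 and Pim1, which also respond quickly to stimuli, was not tested.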

How the data were processed

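Mammary tumor RNA was sequenced, 1 library per group, from kits that do not mark strand. Per the submitters' processing notes, FastQC, MultiQC, Trimmomatic 0.38 and featureCounts 2.0.0 were used with build mm10; the aligner is not given in the sources used here. The authors deposited TPM values, which sum to 1000000 per library. Symbols, positions and exon-union lengths came from GENCODE M21, which matched all 55536 identifiers. The product of TPM and exon length was a whole multiple of 1 step, within 0.01 of a step, for 100% of values above 0, and 1 step was taken as 1 read. These reads gave exact conditional 95% intervals of folds, exact Poisson intervals of levels, and Wald intervals on the log scale for ratios of ratios. All cover counting error only.

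Folds are plain ratios of TPM. Log2 ratios used a pseudocount of 1, which understates the change of low genes. No gene was tested, since 1 library per group allows none. Genes were called by size (higher TPM at least 5, log2 ratio at least 1), and list medians used genes with a mean of at least 1 TPM. From each of 11 other pathway lists, up to 4 genes with the largest log2 ratio among those with a higher TPM of at least 5 were named, and the most abundant as a level; from each cell type or stress list, up to 3. The members and lists were chosen with earlier results of these data known. Of the listed genes, 2 are not reported here. Calls and intervals were tested on simulated data. Python 3.11.15, pandas 2.3.3 and scipy 1.17.1 were used.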

Additional observations from a re-analysis of the deposited data

How the results depend on the processing

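Each alternative changed 1 choice. All 10 genes kept the sign of their log2 ratio under the 5 alternatives run on them, but 9 of the 50 values moved beyond counting error. Stat3, Jak1, Osmr and Socs2 moved after centring and after removing length and GC trends, and Lifr after removing these trends. Each value was judged against the counting interval of its own gene, so genes with many reads moved on small shifts. Socs1, with few reads, had the widest range of the 10 but was not counted as moved. The sizes ranged from 0.02 to 0.15 for Stat3, 0.23 to 0.43 for Lifr, 0.41 to 0.70 for Cish, -0.84 to -0.24 for Socs1 and -0.70 to -0.49 for Socs2. No alternative gave a 2-fold call among them, and a limit of 1.5-fold gave 1, Cish. Their median stayed between 0.03 and 0.17. Centring on genes with a mean of at least 10 TPM shifted all log2 ratios by -0.12, which left Stat3 at 0.02, Jak1 at 0.05 and Osmr at -0.18.

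Calls over all genes numbered 488 with a pseudocount of 5, 2304 with no minimum TPM, 350 with a higher TPM of at least 20 and 2637 at 1.5-fold, in place of 946. They were 530 with at least 50 reads, a minimum added after the data were seen. Centring gave 298 higher and 663 lower in place of 396 and 550, and removing length and GC trends gave 465 higher and 443 lower, which turned the excess of lower calls. List medians that moved beyond counting error were, after centring, -0.16 for STAT3 targets, -0.15 for other STAT genes, -0.79 for heat shock, -0.40 for immediate early and -0.53 for luminal genes. Rescaling without mitochondrial and the 50 most abundant genes gave -0.13 for immediate early and -0.25 for luminal genes. Removing length and GC trends gave -0.29 for luminal genes, and a pseudocount of 5 gave 1.58 for adipocyte genes. The cause was not tested. Of 22 list medians 5 changed sign under some alternative, among them STAT3 targets (-0.16 to 0.05). With 1 library per group none can be left out. No paired analysis was possible because each group has 1 library and no test was run.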
